A study of Rattus norvegicus with 36 samples.

Results

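Fos, Junb, Egr1 and Nr4a1 are immediate early genes, and their RNA levels were followed through every library of a study of neural control of the rat pineal gland. The 4 genes were chosen by name, not by a measured value, but with earlier results of these data known. Counts of how many were called are therefore not those of an independent pick. They are 4 of the 29516 annotated genes (Ensembl identifiers ENSRNOG00000008015, ENSRNOG00000042838, ENSRNOG00000019422 and ENSRNOG00000007607). All 36 libraries of Sprague-Dawley rats were used. In vivo, pups of both sexes had no surgery (Control) or were operated on at postnatal day 5, and their pineal glands were collected at an age of 40 days at mid-day (ZT7, called day) or midnight (ZT19, called night). The surgery was a sham operation (Sham), bilateral decentralization of the superior cervical ganglia, which stay in place without their central input (DCN), or bilateral removal of those ganglia (SCGX). Each of the 8 conditions had 3 libraries. In vitro, glands of adult females were cultured for 48 h and then left untreated for 6 h or treated for 6 h with 1 µM norepinephrine (NE) or 500 µM dibutyryl cyclic AMP (DBcAMP), with 3 libraries each. A pineal-day, a pineal-night and a mixed-tissue library, the last made from 15 tissues taken at ZT7, had no replicates. A replicate was a pool of glands, so the spread between replicates is that between pools, not between animals. The surgeries were neonatal, so the cut input was missing from that age on.

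Immediate early genes are transcribed within minutes of a signal reaching the cell, without new protein being made first, and most of their products are transcription factors with short-lived RNA. Fos and Junb encode subunits of the AP-1 transcription factor, Egr1 encodes a zinc-finger transcription factor, and Nr4a1 encodes an orphan nuclear receptor. In the pineal gland, norepinephrine released at night by fibres of the superior cervical ganglia acts on adrenergic receptors and raises cyclic AMP, which activates protein kinase A and the factor CREB. CREB binds the cyclic AMP response element (CRE) or its half-site, and serum response factor binds the CArG box.

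The stretch of 250 bases before the annotated start is shown for each gene found in the RefSeq promoter table. It was searched for the elements that both factors named above, CREB and serum response factor, bind. By symbol, 3 of the 4 genes had an entry: Junb (GRCr8 chr19:40080876-40081125, plus strand), Egr1 (GRCr8 chr18:26736828-26737077, plus strand) and Nr4a1 (GRCr8 chr7:134259888-134260137, plus strand). Fos had none. Capitals mark CRE half-sites (TGACG, or CGTCA as read from the other strand) and CArG boxes.
Junb: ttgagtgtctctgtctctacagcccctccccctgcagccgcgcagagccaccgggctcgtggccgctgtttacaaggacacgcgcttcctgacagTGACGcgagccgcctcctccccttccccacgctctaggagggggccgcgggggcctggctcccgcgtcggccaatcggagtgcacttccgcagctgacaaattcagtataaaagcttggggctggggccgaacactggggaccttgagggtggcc
Egr1: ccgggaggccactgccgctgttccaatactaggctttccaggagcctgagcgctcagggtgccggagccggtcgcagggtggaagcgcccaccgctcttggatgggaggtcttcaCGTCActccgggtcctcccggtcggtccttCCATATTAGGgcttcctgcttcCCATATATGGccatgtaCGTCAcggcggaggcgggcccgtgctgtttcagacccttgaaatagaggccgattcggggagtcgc
Nr4a1: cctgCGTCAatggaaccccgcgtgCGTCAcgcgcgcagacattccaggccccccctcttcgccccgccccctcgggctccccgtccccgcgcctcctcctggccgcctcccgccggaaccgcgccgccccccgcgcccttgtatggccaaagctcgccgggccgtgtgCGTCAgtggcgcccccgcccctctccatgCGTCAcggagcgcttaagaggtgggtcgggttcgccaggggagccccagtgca
The Nr4a1 stretch held 4 CRE half-sites, the Egr1 stretch 2 and the Junb stretch 1. At least 1 half-site occurred in 18.2% of the 33469 stretches of this length in the table, at least 2 in 3.98% and at least 4 in 0.173%. The Egr1 stretch also held 2 CArG boxes, between 105 and 74 bases before the start, against at least 1 in 1.5% of all stretches and at least 2 in 7 of them (0.0209%). None of the 3 stretches matched the full CRE (TGACGTCA, which contains the half-site and was found in 1.59% of all stretches) or the AP-1 site (TGACTCA or TGAGTCA, 4.05%), both strands read. These matches describe letters in the reference, not bound sites, and the libraries were aligned to an older assembly (rn4) than the one shown.

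Between 12985072 and 18504240 read-pairs per in vivo library were counted on genes, with 12556861 to 18524435 per culture library and 28836161 to 38574186 in the 3 tissue libraries. The 4 genes were covered by at least 49 read-pairs (Nr4a1, Sham day) in every library. No replicate libraries were identical. On the first pair of principal components of the in vivo libraries, DCN day replicate 1 and Sham night replicate 3 lay farthest out along the second, so results that use them are also given without them. Levels below are RPKM (read-pairs scaled by gene length and library total), which can be compared between genes, and differences are log2 fold changes (log2 FC) with their SE from edgeR's quasi-likelihood test. A gene was called changed at a Benjamini-Hochberg adjusted p under 0.001, the threshold of the study's methods. In whole glands, fewer cells of a type and less RNA per cell cannot be told apart.

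**Figure D1:**
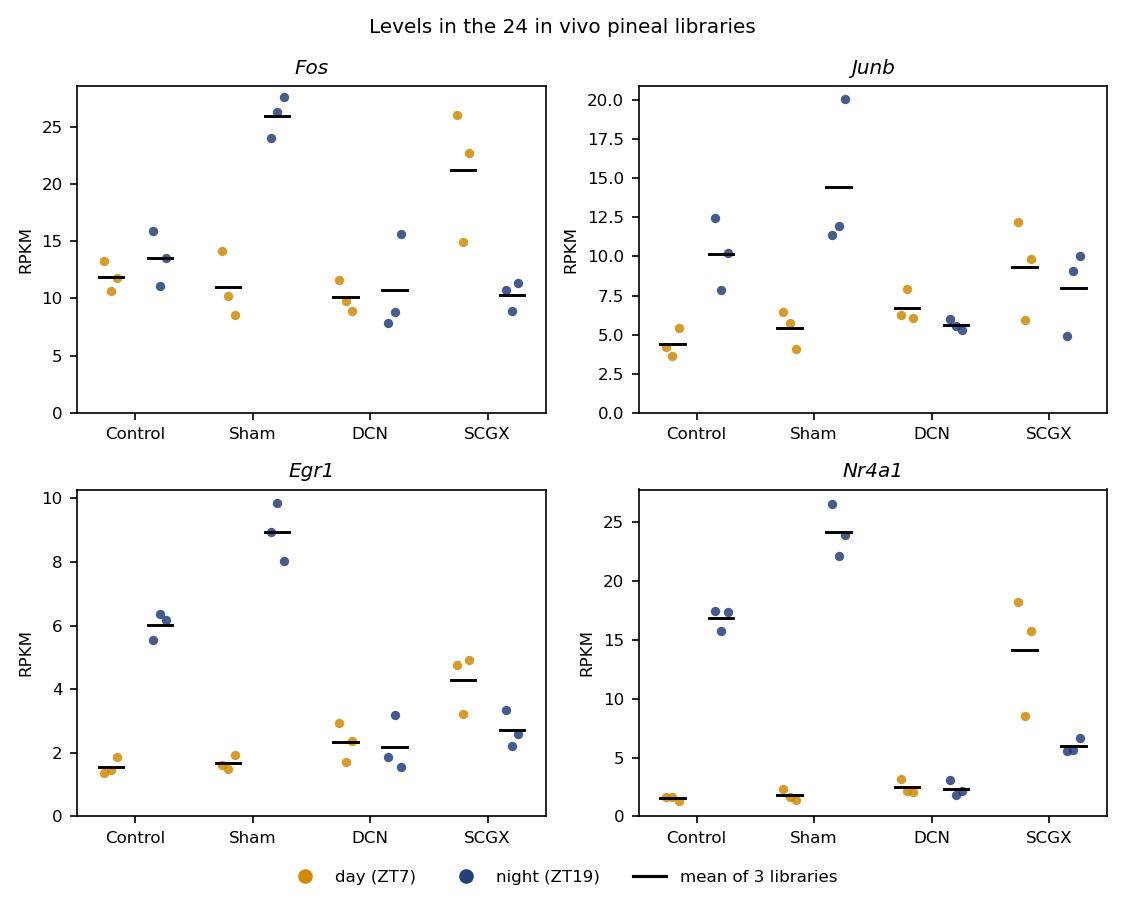
RPKM of Fos, Junb, Egr1 and Nr4a1 (linear axes from 0) in the 24 in vivo libraries, by surgical group and time; points are libraries, in replicate order from left to right, and black lines are means of 3. Nr4a1 and Egr1 were high at night in Control and Sham, and low at both times in DCN. In SCGX the Nr4a1 day libraries lay above the night libraries, while those of Egr1 overlapped.

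The first comparison asked how the 4 genes differ between night and day in glands with intact innervation. Nr4a1 showed the steepest night/day contrast of the 4, Egr1 and Junb rose as well in Control, and Fos had nearly the same level at both times in Control. Glands were taken only at ZT7 and ZT19, and cultures only at 6 h, so levels at other times were not measured.

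In Control glands, Nr4a1 stood at 1.64, 1.67 and 1.35 RPKM by day and at 17.5, 15.7 and 17.3 RPKM at night. Egr1 stood at 1.37, 1.47 and 1.86 RPKM by day and at 5.55, 6.37 and 6.18 RPKM at night. Neither gene's night values overlapped its day values. Junb was measured at 4.19, 3.66 and 5.43 RPKM by day and at 12.5, 7.85 and 10.2 RPKM at night, also without overlap. Fos was measured at 13.3, 10.6 and 11.8 RPKM by day and at 15.9, 11.1 and 13.5 RPKM at night, and its ranges overlapped. By edgeR with Benjamini-Hochberg adjustment, the log2 FC at night was 3.62 ± 0.13 for Nr4a1 (adjusted p = 4.24e-07), 2.12 ± 0.15 for Egr1 (adjusted p = 1.59e-05) and 1.37 ± 0.19 for Junb (adjusted p = 0.000746). Fos had a log2 FC of 0.36 ± 0.14 (edgeR adjusted p = 0.0785; 0.0322 without Control night replicate 2). Thus 3 of the 4 genes were called in Control, where 9.39% of the 15622 genes tested were called. The Nr4a1 and Egr1 calls held in all 6 fits that left out 1 library. The Junb call held only without Control night replicate 2 (edgeR adjusted p = 0.000685), and the other 5 fits gave adjusted p up to 0.0048 with a log2 FC of at least 1.25. Junb also missed 0.001 when library size was the scaling (edgeR adjusted p = 0.00247).

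In Sham glands the same genes were high at night, and Fos stood apart between the times as well. Nr4a1 stood at 2.34, 1.68 and 1.37 RPKM by day and at 26.5, 22.1 and 23.9 RPKM at night. Egr1 stood at 1.62, 1.49 and 1.93 RPKM by day and at 8.95, 9.86 and 8.04 RPKM at night. These values were again far apart, with the lowest night library of each gene above its highest day library. Junb was measured at 6.48, 5.72 and 4.07 RPKM by day and at 11.4, 11.9 and 20.1 RPKM at night. Fos was measured at 14.2, 10.2 and 8.57 RPKM by day and at 24, 26.3 and 27.6 RPKM at night. For both AP-1 genes, too, every night library was above every day library. The log2 FC was 3.81 ± 0.22 for Nr4a1 (edgeR adjusted p = 0.000138) and 2.49 ± 0.16 for Egr1 (edgeR adjusted p = 0.000208), so that 2 of the 4 genes were called, against 2.27% of all genes tested. Junb (log2 FC 1.47 ± 0.27, edgeR adjusted p = 0.0104) and Fos (1.30 ± 0.19, edgeR adjusted p = 0.00468) passed at 0.05, a threshold that all 4 genes and 20.6% of all genes passed. DESeq2's Wald test called all 4 at 0.001, and 11.1% of all genes. Without Sham night replicate 3, the library that stood apart and the one with the highest Junb level, Nr4a1 (3.94), Egr1 (2.67), Fos (1.38) and Junb (1.29) kept their log2 FC and their side of the threshold. Egr1 missed 0.001 in each of the other 5 fits without 1 library (edgeR adjusted p up to 0.00243), and Nr4a1 missed it without Sham day replicate 2 (0.00204) or 3 (0.00112).

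The night level of Fos was 13.5 ± 2.4 RPKM in Control and 26 ± 1.78 RPKM in Sham (SD, n = 3), with no overlap between the libraries. The difference between the night/day changes of Sham and Control, a test added after these values were seen, was 1.02 ± 0.25 on the log2 scale for Fos (edgeR, unadjusted p = 0.00157 in a model fitted across all genes, adjusted p = 0.503). It was 0.17 for Junb, 0.44 for Egr1 and 0.28 for Nr4a1, with adjusted p of at least 0.617. None of the 4 genes was called, against 0.00629% of all genes. At an unadjusted p under 0.05, 1 of the 4 passed, against 8.12% of all genes, and DESeq2 called 0 of the 4 at 0.001, against 0.0573%. For Fos, DESeq2 gave 1.01 with an adjusted p of 0.0494, so passing 0.05 depended on the method. Without Sham night replicate 3 the differences were 1.01 for Fos, −0.088 for Junb, 0.54 for Egr1 and 0.32 for Nr4a1.

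The next comparisons asked what remained of the night/day difference after the neural input was cut. In DCN glands the 4 genes were low at both times. Nr4a1 stood at 3.22, 2.13 and 2.08 RPKM by day and at 3.12, 1.83 and 2.12 RPKM at night. Egr1 stood at 2.93, 1.72 and 2.39 RPKM by day and at 1.86, 3.2 and 1.54 RPKM at night. Night and day overlapped for both genes. Junb was between 6.06 and 7.9 RPKM by day and between 5.27 and 5.99 RPKM at night, a small gap in the direction opposite to Control. Fos was between 8.91 and 11.6 RPKM by day and between 7.82 and 15.6 RPKM at night. The log2 FC was 0.12 (95% interval −0.51 to 0.76) for Fos, −0.23 (−0.56 to 0.10) for Junb, −0.07 (−0.82 to 0.69) for Egr1 and −0.04 (−0.70 to 0.62) for Nr4a1. The intervals of Egr1 and Nr4a1 ended well below the Control and Sham estimates of the same genes. None of the 4 was called (0% of the 15928 genes tested by edgeR, and 8.98% at an unadjusted p under 0.05, none of them among the 4). DESeq2 called 0.171% of all genes at 0.001, again none of the 4. The signs of the Fos, Egr1 and Nr4a1 estimates changed when single libraries were left out, DCN day replicate 1 among them for Egr1 (0.12) and Nr4a1 (0.19). Without that library Fos stood at 0.24 and Junb at −0.28.

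The Sham and DCN night/day changes were compared directly, as the interaction of surgery and time in their 12 libraries. The night/day change was smaller in DCN than in Sham by 3.91 ± 0.36 on the log2 scale for Nr4a1 (edgeR log2 difference −3.91, adjusted p = 7.98e-05). For Egr1 the difference was −2.61 ± 0.38 (edgeR adjusted p = 0.00132), for Junb −1.74 ± 0.29 (0.00305) and for Fos −1.23 ± 0.36 (0.0478). At 0.001, 1 of the 4 genes was called, against 1.6% of all genes, and at 0.05 all 4, against 11.2%. By DESeq2, Egr1 (adjusted p = 6.45e-09) and Junb (2.91e-06) also passed 0.001, and Fos did not (0.00913). The DESeq2 share of all genes for this interaction is not given here. Without both libraries that stood apart, the differences were −3.74 for Nr4a1 (edgeR adjusted p = 0.000227), −2.55 for Egr1 (0.00285), −1.56 for Junb (0.00554) and −1.13 for Fos (0.122). Egr1 passed 0.001 without DCN night replicate 2 (−2.96, 0.000664). Fos missed 0.05 in 10 of the 12 fits without 1 library, with values from −1.62 to −1.05, and passed only without DCN night replicate 3 or Sham day replicate 1.

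**Figure D2:**
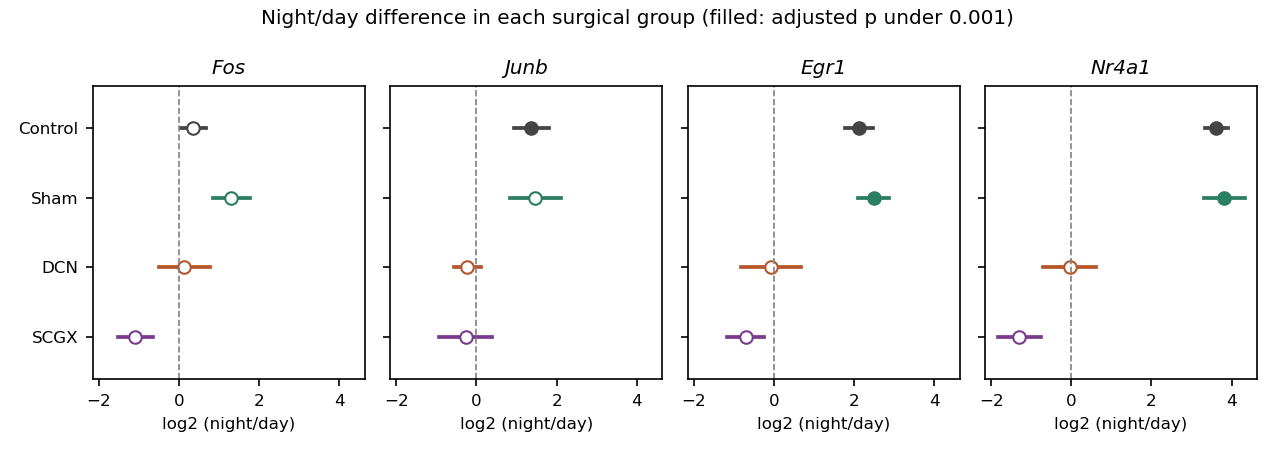
Night/day log2 fold change of each gene in the 4 surgical groups (x axis, log2 units); points are edgeR estimates from 6 libraries, bars are 95% intervals and filled points are called at an adjusted p under 0.001. The Nr4a1 estimates run from 3.81 in Sham to −1.29 in SCGX, and those of DCN are near 0 for all 4 genes.

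In SCGX glands the order of the times was turned around for Nr4a1 and Fos. Nr4a1 stood at 18.2, 8.57 and 15.7 RPKM by day and at 5.59, 5.66 and 6.69 RPKM at night. Fos stood at 26, 14.9 and 22.7 RPKM by day and at 10.8, 8.91 and 11.3 RPKM at night. For both genes every day library was above every night library. Egr1 was measured at 4.75, 3.21 and 4.91 RPKM by day and at 3.34, 2.22 and 2.6 RPKM at night, overlapping only through day replicate 2. Junb was measured at 12.2, 5.96 and 9.81 RPKM by day and at 4.92, 9.05 and 10 RPKM at night, with wide overlap. Day replicate 2 was the lowest of the 3 SCGX day libraries for all 4 genes. The night/day log2 FC was −1.29 ± 0.24 for Nr4a1 (edgeR adjusted p = 0.0381), −1.09 ± 0.19 for Fos (0.0308), −0.71 ± 0.20 for Egr1 (0.107) and −0.26 ± 0.29 for Junb (0.692). At 0.001 edgeR called 0 of the 4 genes and 0.0129% of all genes, 3 of the 4 had an unadjusted p under 0.05 (18.1% of all genes), and DESeq2 called 1, Fos (1.13% of all genes). At an adjusted p under 0.05 by edgeR, 2 of the 4 passed, against 1.85% of all genes.

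These SCGX differences depended on which libraries entered. Without day replicate 2, Nr4a1 reached −1.56 (edgeR adjusted p = 0.00115), Fos −1.29 (0.0038) and Egr1 −0.88 (0.0481). Without any of the other 5 libraries, Nr4a1 and Fos missed 0.05, with edgeR adjusted p between 0.0558 and 0.15 and log2 FC between −1.37 and −0.90. All 6 of these fits kept the day level above the night level for Nr4a1, Fos and Egr1.

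The night/day change in SCGX differed from that in Sham by −5.17 ± 0.37 on the log2 scale for Nr4a1 (edgeR adjusted p = 3.66e-06), −3.26 ± 0.29 for Egr1 (1.56e-05) and −2.46 ± 0.30 for Fos (0.00015). Junb had a difference of −1.79 ± 0.45 (edgeR adjusted p = 0.0147). With that, 3 of the 4 genes were called, against 4.58% of all genes, and all 4 passed at 0.05, against 18.5%. The Nr4a1 and Egr1 calls held in all 12 fits without 1 library. The Fos call was lost without Sham day replicate 2 or SCGX night replicate 1 or 2, at adjusted p no higher than 0.00109. Without Sham night replicate 3 the differences were −5.23 for Nr4a1, −3.38 for Egr1, −2.47 for Fos and −1.55 for Junb, with each call as before. Junb missed 0.05 only without SCGX day replicate 1 (0.0564). The SCGX and DCN interactions share the 6 Sham libraries.

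Comparisons with Sham at one time placed these differences at night or by day. At night, the mean levels of all 4 genes were lower after either operation than in Sham. Nr4a1 stood at 24.2 ± 2.23 RPKM in Sham, 2.36 ± 0.677 RPKM in DCN and 5.98 ± 0.615 RPKM in SCGX (SD, n = 3 each), with no overlap of Sham with either. Its log2 FC against Sham was −3.47 ± 0.21 in DCN (edgeR adjusted p = 0.00025) and −2.12 ± 0.12 in SCGX (0.000141). Egr1, at 8.95 ± 0.911 RPKM in Sham, stood at 2.2 ± 0.878 RPKM in DCN (log2 FC −2.14 ± 0.27, edgeR adjusted p = 0.00369) and at 2.72 ± 0.567 RPKM in SCGX (−1.83 ± 0.18, 0.00121). Fos was lower than in Sham by a log2 FC of −1.38 ± 0.26 in DCN (edgeR adjusted p = 0.0155) and −1.43 ± 0.11 in SCGX (0.000466). The Sham night mean of Fos was itself 1.92 times that of unoperated Control night. Night libraries of DCN (7.82 to 15.6 RPKM) and SCGX (8.91 to 11.3 RPKM) overlapped those of Control (11.1 to 15.9 RPKM) for Fos. Neither operation was tested against Control. Junb had −1.47 ± 0.22 in DCN (edgeR adjusted p = 0.00655) and −0.95 ± 0.31 in SCGX (0.0747).

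In DCN at night, 1 of the 4 genes, Nr4a1, was called, against 0.878% of all genes, and all 4 passed at 0.05, against 17.1%. In SCGX at night, Nr4a1 and Fos were called (2 of 4, against 1.72%), and 3 of the 4 passed at 0.05, against 20.8%. By DESeq2, Egr1 (adjusted p = 1.52e-12), Junb (1.49e-08) and Fos (3.85e-06) also passed 0.001 in DCN at night. In SCGX at night, Egr1 (1.07e-15) also passed it by DESeq2, and Junb did not (0.00852). The DESeq2 shares of all genes at night are not given here. The Nr4a1 call in DCN was lost in 4 of 6 fits without 1 library (edgeR adjusted p up to 0.00297 without DCN night replicate 2) and held without Sham night replicate 3 (0.000252) or DCN night replicate 1. In SCGX, the Nr4a1 call was lost without any 1 of the 3 SCGX libraries (up to 0.00279), and the Fos call held only without Sham night replicate 3 (0.000297), where Egr1 also passed 0.001 (0.00038). Without Sham night replicate 3 the log2 FC in DCN was −3.58 for Nr4a1, −2.31 for Egr1, −1.43 for Fos and −1.27 for Junb, and in SCGX −2.24, −2.01, −1.51 and −0.76 in the same order. At 0.05, Nr4a1 and Egr1 passed in all of these fits. Fos in DCN missed 0.05 without DCN night replicate 1 or 2 or Sham night replicate 2 (up to 0.0641).

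By day, the DCN and Sham libraries overlapped for all 4 genes. Nr4a1 stood at 2.48 ± 0.644 RPKM in DCN and 1.8 ± 0.497 RPKM in Sham (SD, n = 3). The log2 FC of the 4 genes lay between −0.18 (Fos, 95% interval −0.66 to 0.29) and 0.43 (Egr1, −0.14 to 0.99). None of the 4 was called by edgeR at 0.001 (0% of all genes) or had an unadjusted p under 0.05 (22.1% of all genes), and DESeq2 called none of the 4 at 0.001 (2.54% of all genes). Without DCN day replicate 1 the log2 FC lay between −0.29 (Fos) and 0.30 (Junb).

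The mean levels in SCGX glands by day were above those in Sham. Nr4a1 stood at 14.2 ± 5 RPKM in SCGX, where the lowest of 3 libraries (8.57) was above the highest Sham day library (2.34). Egr1 stood at 4.29 ± 0.94 RPKM against 1.68 ± 0.227 RPKM, and Fos at 21.2 ± 5.71 RPKM against 11 ± 2.88 RPKM (SD, n = 3). Both of these, too, were without overlap. Junb, at 9.32 ± 3.14 RPKM against 5.42 ± 1.23 RPKM, overlapped through SCGX day replicate 2. The log2 FC was 3.00 ± 0.32 for Nr4a1 (edgeR adjusted p = 0.00142), 1.38 ± 0.20 for Egr1 (0.00544), 0.97 ± 0.24 for Fos (0.0405) and 0.80 ± 0.28 for Junb (0.104). At 0.001 edgeR called 0 of the 4, against 0.723% of all genes, and at 0.05 it called 3, against 11.4%. All 4 had an unadjusted p under 0.05, as had 28.1% of all genes, and DESeq2 called 3 of the 4 at 0.001, against 5.53%. Nr4a1 and Egr1 passed 0.05 in all 6 fits without 1 library (edgeR adjusted p up to 0.0102 and 0.0315). Fos missed 0.05 without Sham day replicate 2 or 3 or SCGX day replicate 1 or 3 (up to 0.141), and Junb passed it only without SCGX day replicate 2 (0.043).

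**Figure D3:**
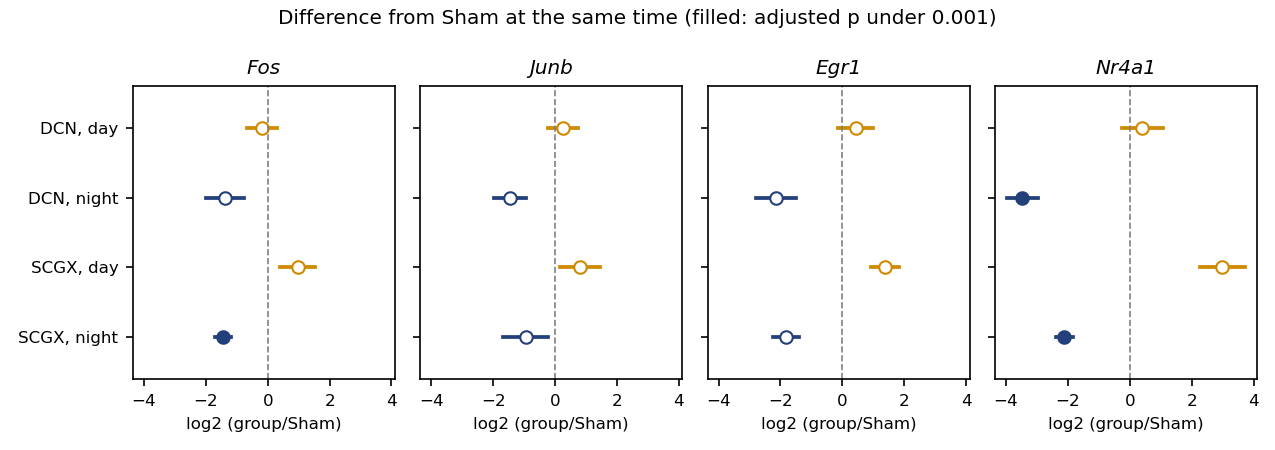
Log2 fold change of DCN and SCGX against Sham at the same time (x axis, log2 units); points are edgeR estimates from 6 libraries, bars are 95% intervals and filled points are called at an adjusted p under 0.001. At night both operations lie below Sham, and by day SCGX lies above it, with Nr4a1 at 3.00.

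SCGX and DCN were then compared with each other, which was decided after the levels were seen. By day Nr4a1 was at a log2 FC of 2.59 ± 0.31 in SCGX against DCN (edgeR adjusted p = 0.0249), with every SCGX library above every DCN library. The log2 FC was 1.15 ± 0.21 for Fos (edgeR adjusted p = 0.0614), 0.94 ± 0.24 for Egr1 (0.115) and 0.55 ± 0.25 for Junb (0.273). At 0.001 edgeR called 0 of the 4 (0% of all genes), and at 0.05 it called Nr4a1, against 0.761% of all genes. At an unadjusted p under 0.05, 3 of the 4 passed, against 19.7% of all genes, and DESeq2 called Fos and Nr4a1 at 0.001, against 1.39%. Nr4a1 kept the 0.05 call without DCN day replicate 1 (2.82, edgeR adjusted p = 0.00806) or SCGX day replicate 2 (0.0123), and missed it without any of the other 4 libraries (up to 0.142). Fos passed 0.05 without either of those first 2 libraries (0.0277 and 0.0228), and Egr1 without DCN day replicate 1 (0.0474). Junb stood at 0.50 without that library. The interaction of SCGX and DCN with time gave −1.20 ± 0.37 for Fos and −1.24 ± 0.41 for Nr4a1 (edgeR adjusted p = 0.349 and 0.376), with none of the 4 called (0% of all genes). At an unadjusted p under 0.05, 2 of the 4 passed, against 10.6% of all genes, and DESeq2 called none of the 4 at 0.001, against 0.0128%. Without DCN day replicate 1 it gave −1.33 for Fos, −1.48 for Nr4a1, −0.83 for Egr1 and 0.015 for Junb.

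The culture experiment asked whether norepinephrine, the transmitter, or DBcAMP, a cell-permeant analog of cyclic AMP, moves the same genes. All 4 rose with either agent, Nr4a1 the most. Nr4a1 stood at 3.44, 2.16 and 3.48 RPKM in untreated glands, at 31.4, 37.6 and 32.5 RPKM with NE and at 51.3, 44.8 and 63 RPKM with DBcAMP. Fos stood at 11.3, 13.3 and 12.4 RPKM untreated, at 33, 40.5 and 38.6 RPKM with NE and at 69.5, 68 and 87.8 RPKM with DBcAMP. In both genes the 3 groups were fully separate, in the order untreated, NE, DBcAMP. Junb was measured at 31.5, 23.3 and 18.5 RPKM untreated, at 35.8, 49.8 and 33.9 RPKM with NE and at 52, 36.9 and 80.7 RPKM with DBcAMP. Egr1 was measured at 7.77, 6.74 and 10.7 RPKM untreated, at 17.5, 19 and 15.5 RPKM with NE and at 11.4, 16.3 and 17.2 RPKM with DBcAMP. For Junb and Egr1 the treated groups were above the untreated one but overlapped each other.

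**Figure D4:**
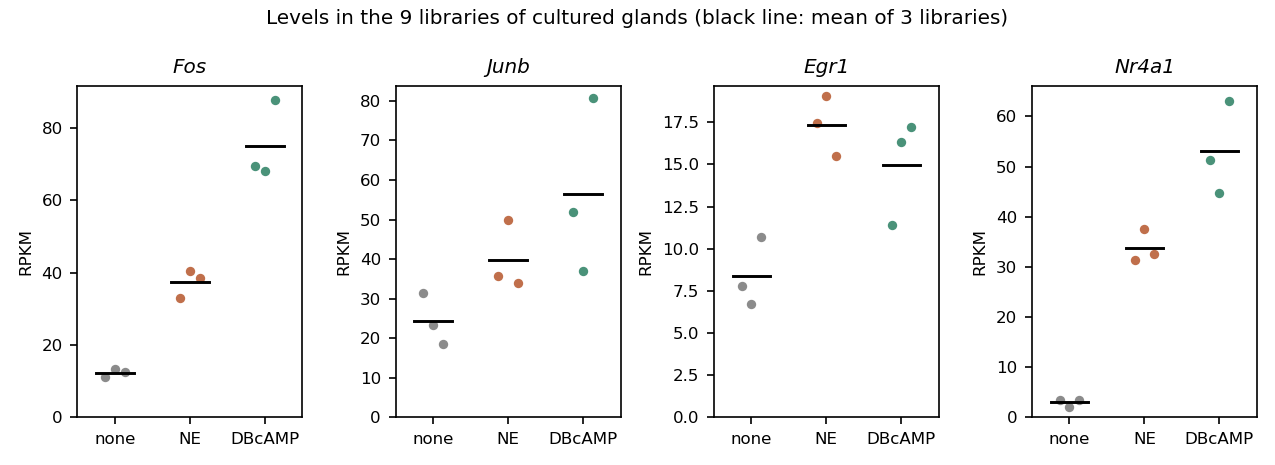
RPKM of the 4 genes (linear axes from 0) in the 9 libraries of cultured glands, untreated or treated for 6 h with NE or DBcAMP; points are libraries in replicate order and black lines are means of 3. DBcAMP gave the highest means of Fos (75.1), Junb (56.5) and Nr4a1 (53), and NE that of Egr1 (17.3).

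With NE, the log2 FC against untreated glands was 3.56 ± 0.13 for Nr4a1, 1.69 ± 0.10 for Fos, 1.13 ± 0.14 for Egr1 and 0.81 ± 0.15 for Junb, with a largest edgeR adjusted p of 0.000703 (Junb). Thus 4 of 4 genes were called, against 11.3% of all genes. DESeq2 called 3 of the 4, against 13.9%, and not Junb (adjusted p = 0.00804), which edgeR also lost with library size as the scaling (0.00571) or with all culture libraries in 1 model (0.0141). With DBcAMP it was 4.26 ± 0.16 for Nr4a1, 2.74 ± 0.11 for Fos, 1.36 ± 0.23 for Junb and 0.97 ± 0.17 for Egr1, with a largest edgeR adjusted p of 0.000689 (Egr1). Again 4 of 4 genes were called, against 16.7% of all genes. DESeq2 called 3 of the 4, against 20.6%, and not Junb (adjusted p = 0.00137). Scaled by library size, edgeR lost Junb (0.00177) and Egr1 (0.00247). Both comparisons share the 3 untreated libraries. The Nr4a1 and Fos calls held in all fits without 1 library, and so did that of Egr1 with NE. Junb with NE missed 0.001 without untreated replicate 2 or 3 or NE replicate 1 or 2 (edgeR adjusted p up to 0.00422). With DBcAMP, Junb missed it without untreated replicate 2 or 3 or DBcAMP replicate 1 (up to 0.00417), and Egr1 without untreated replicate 1 or 2 or DBcAMP replicate 2 or 3 (up to 0.00545).

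Set against each other at their single doses, NE gave less Fos than DBcAMP (log2 FC −1.06 ± 0.10, edgeR adjusted p = 4.92e-05), a call that held in all 6 fits without 1 library. Nr4a1 was also lower with NE (−0.70 ± 0.11, edgeR adjusted p = 0.0017) and passed at 0.05 in all 6 fits, and at 0.001 without DBcAMP replicate 2 (0.000324). Junb had −0.56 ± 0.21 (edgeR adjusted p = 0.166) and passed 0.05 only without DBcAMP replicate 2 (0.0144). For Egr1 the difference was 0.16, with a 95% interval from −0.13 to 0.45 (edgeR adjusted p = 0.554). At 0.001, 1 of the 4 genes was called, against 1.02% of all genes, and at 0.05, 2 were, against 6.07%. Only 1 dose of each agent was measured, and the doses differed.

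Across all 11 replicated groups the 4 genes did not follow 1 common order. Fos ran from 75.1 RPKM with DBcAMP and 37.4 RPKM with NE to 26 RPKM in Sham night and 21.2 RPKM in SCGX day. Its other 7 groups lay between 10.1 and 13.5 RPKM, and each overlapped its neighbours. Junb was highest in the cultures, where even untreated glands (24.4 RPKM) overlapped no in vivo group other than Sham night (14.5 RPKM). Egr1 in untreated cultures (8.41 RPKM) overlapped Sham night (8.95 RPKM) and was above every other in vivo group. Nr4a1 had the clearest steps: DBcAMP, NE, Sham night and Control night did not overlap, SCGX day (14.2 RPKM) overlapped Control night (16.9 RPKM), and SCGX night (5.98 RPKM) was below these and above untreated cultures (3.02 RPKM), the DCN groups and the Sham and Control day groups, which overlapped from each to the next.

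Between Control day and untreated cultures, the mean RPKM differed 5.52-fold for Junb, 5.36-fold for Egr1, 1.95-fold for Nr4a1 and 1.04-fold for Fos, higher in culture in each case. These are values of 2 experiments with rats of different age and sex composition, sequenced separately, and were not tested. Over the 8 in vivo groups, the highest mean was 15.6 times the lowest for Nr4a1, 5.71 times for Egr1, 3.27 times for Junb and 2.57 times for Fos. Sham night was the highest in vivo group for all 4 genes.

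Replicates of a group did not deviate together in all 4 genes. After the group mean of log2 RPKM was taken off, the correlation over the 24 in vivo libraries was 0.49 between Fos and Nr4a1, 0.45 between Junb and Nr4a1, 0.43 between Fos and Junb, 0.10 between Egr1 and Nr4a1, −0.04 between Fos and Egr1 and −0.13 between Junb and Egr1. Over the 9 culture libraries the correlation was 0.56 between Egr1 and Nr4a1, 0.52 between Junb and Nr4a1 and 0.49 between Fos and Junb. The other pairs in culture had 0.22 (Fos and Egr1), 0.20 (Fos and Nr4a1) and −0.02 (Junb and Egr1). These are descriptions over libraries that share 8 group means in vivo or 3 in culture, and each library's scaling. In 3 of 11 replicated groups, 1 library was the highest or the lowest for all 4 genes: SCGX day replicate 2 (lowest), NE replicate 2 (highest) and DBcAMP replicate 3 (highest).

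Among the 15882 other genes measured in the 24 in vivo libraries, the pattern most like that of Nr4a1 was that of ENSRNOG00000001189 (Pearson r of log2 CPM 0.98), and that most like Egr1 was that of ENSRNOG00000003977 (0.962). The 24 points are 3 libraries of each of 8 conditions and share those condition means. The nearest gene reached 0.936 for Junb and 0.868 for Fos, so the Fos pattern had the least close neighbours of the 4.

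In the unreplicated tissue libraries, the pineal-night library held 79 RPKM of Nr4a1, 51 RPKM of Egr1, 38.4 RPKM of Fos and 19.7 RPKM of Junb. The pineal-day library held 7.14, 8.32, 21.2 and 5.82 RPKM of the same genes, in the same order. In RPKM, the night value was 11.1 times the day value for Nr4a1, 6.13 times for Egr1, 3.38 times for Junb and 1.81 times for Fos. The ratios to mixed tissue that follow use another scaling, the median of ratios over genes, so they are not interchangeable with ratios of RPKM. Against the mixed-tissue library (24.6, 22.1, 21.2 and 15.3 RPKM of Nr4a1, Egr1, Fos and Junb), the pineal-night library held 3.74 times the normalized read-pairs of Nr4a1 (95% binomial interval 3.56 to 3.91), 2.69 times those of Egr1 (2.57 to 2.81), 2.11 times those of Fos (1.97 to 2.26) and 1.5 times those of Junb (1.38 to 1.62). By day the pineal library held less than mixed tissue of Nr4a1 (0.291, interval 0.264 to 0.321), Egr1 (0.378, 0.348 to 0.41) and Junb (0.382, 0.334 to 0.434), and about as much Fos (1.00, 0.923 to 1.09). The intervals cover counting error between 2 libraries only. The levels in these pineal libraries were above those of Control at the same time, 8.45-fold for Egr1 and 4.69-fold for Nr4a1 at night, a difference of experiments that was not tested.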

How the data were processed

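RNA of rat pineal glands was measured in 36 libraries by strand-specific RNA-Seq of total RNA. The authors aligned read-pairs with RNA-STAR to rn4 with Ensembl annotation and counted them per gene. The deposited counts are raw numbers of read-pairs. The authors computed the deposited RPKM values from these counts by scaling to gene length and library total. The submitters' processing notes name CASAVA 1.8.2, STAR 2.3.1y, R 3.0.2 and DESeq2 1.2.10. Read-pairs on more than 1 gene were not counted, so reads shared by similar genes can be missing.

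Here, edgeR 4.0.16 (R 4.3.3) was run on the counts (TMM scaling, quasi-likelihood test, Benjamini-Hochberg adjustment over all genes tested), with genes of a mean normalized count of at least 5 and the libraries compared only. The SE is the absolute log2 fold change divided by the root of the F statistic, and intervals are 95%. RPKM gives levels and was not tested. An exact permutation test of 1 gene at 3 libraries against 3 cannot go below 0.1. Library totals are given with the results and their differences enter through the scaling. The scripts were tested on simulated data. Python 3.11.15 was used for loading and drawing.

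Of the comparisons, 13 were listed with their alternatives at the start, and 3 (Sham against Control over time, SCGX against DCN by day and over time) were added after the values were seen. Alternatives were DESeq2 1.42.0, other scalings, other count filters, 1 model over an experiment, the replicate number as a block, a threshold of 0.05, edgeR's small-count adjustment of the quasi-likelihood and leaving out each library (the last but one added later, as was leaving out 2 libraries that stood apart).

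The genes and lists were chosen with earlier results of these data known. The named genes are the 4 members in every comparison and, for each, the genes with the most similar pattern. Lists by symbol (other AP-1, EGR, NR4A and immediate early genes, the cyclic AMP pathway, heat shock genes and cell type markers) were not analysed here, because the gene table used does not pair symbols with the files' identifiers. The labelled tissue was therefore not checked against markers. The pairing of replicate numbers was checked by the correlation of their deviations: in no comparison were all over 0.1, so the numbers were not treated as pairs. Promoter sequences are from RefSeq (GRCr8).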

Additional observations from a re-analysis of the deposited data

Results flagged for a closer look

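In 4 cases the night/day change differed between surgical groups by a test of the difference itself (edgeR's interaction of surgery and time, Benjamini-Hochberg adjusted p under 0.001). These were 1 of the 4 genes in DCN against Sham (1.6% of all genes) and 3 in SCGX against Sham (4.58%). Both tests share the 6 Sham libraries. The interactions of Sham and Control and of SCGX and DCN called 0 of the 4. The Nr4a1 change in DCN was below that in Sham by a log2 difference of −3.91 (adjusted p = 7.98e-05). In SCGX against Sham, the differences were −5.17 for Nr4a1 (adjusted p = 3.66e-06), −3.26 for Egr1 (1.56e-05) and −2.46 for Fos (0.00015). The SCGX night/day change on its own passed 0.05 for Nr4a1 (edgeR adjusted p = 0.0381) and Fos (0.0308), in 1 of 6 fits without 1 library each, and not for Egr1 (0.107), and none of them passed 0.001. The mean Nr4a1 level went from 1.8 RPKM by day to 24.2 RPKM at night in Sham, and from 14.2 to 5.98 RPKM in SCGX. For Fos the means went from 11 to 26 RPKM in Sham and from 21.2 to 10.3 RPKM in SCGX. In unoperated Control the Fos means went from 11.9 to 13.5 RPKM, a change that was not called. For Egr1 they went from 1.68 to 8.95 RPKM in Sham and from 4.29 to 2.72 RPKM in SCGX.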

How the results depend on the processing

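For single genes, 519 of 580 log2 FC under settings other than leaving out a library kept their direction and their side of the threshold, 48 moved past it, 12 fell short of it and 1 changed sign (Junb in the interaction of SCGX and DCN with time, 0.041 scaled by library size only). Among these, 47 of the 519 and 17 of the 48 came from the 0.05 threshold applied to the main fit, which gives no new log2 FC. Of 480 values without 1 library, 423 kept both. How many of the 4 genes were called moved by over 1.5 times as follows. With DESeq2 the number was 4 for Sham night/day (11.1% of all genes) and 1 for SCGX night/day (1.13%). It was 3 for SCGX by day (5.53%) and 2 for SCGX against DCN by day (1.39%). DESeq2 also gave 3 for the DCN interaction, 4 for DCN at night and 2 for NE against DBcAMP. With all libraries of the experiment in 1 model it was 4 for Sham night/day, 2 for the DCN interaction, 4 for DCN at night, 2 for SCGX by day and 1 for SCGX against DCN by day. With no count filter it was 2 for the DCN interaction, 1 for SCGX by day and 2 for NE against DBcAMP. With library size only it was 2 for DBcAMP against untreated glands. At 0.05 it was 4 for Sham night/day, 2 for SCGX night/day, 4 for the DCN interaction, 4 for DCN at night, 3 for SCGX by day, 2 for NE against DBcAMP and 1 for SCGX against DCN by day. Without 1 library it ranged from 0 to 2 for Sham night/day, 1 to 2 for the DCN interaction, 0 to 1 for DCN at night, 0 to 3 for SCGX at night, 2 to 3 for DBcAMP and 1 to 2 for NE against DBcAMP. Shares of all genes at 0.05 are given with each comparison above. Where no share is given, a count does not show whether the 4 genes moved more than genes in general. The cause was not tested.

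Signs changed without 1 library for DCN night/day (Fos −0.26 to 0.31, Egr1 −0.43 to 0.12, Nr4a1 −0.29 to 0.19), Fos in DCN against Sham by day (−0.34 to 0.041), and Junb in the interactions of Sham and Control (−0.088 to 0.33) and of SCGX and DCN (−0.27 to 0.23) with time. None of these was called.

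With the replicate block, 1 of the 4 genes was called in Sham night/day, 0 in DCN at night and 0 in SCGX at night. The replicate numbers did not pair the libraries (correlations of deviations from −0.271 to 0.25), and the block leaves fewer degrees of freedom. The share of all genes called with the block is not given here, so fewer calls cannot be read as particular to the 4 genes. With library size only, the median log2 FC of all genes moved by up to −0.18 (Control) and 0.18 (SCGX interaction), and by −0.14 for DBcAMP, 0.11 for DCN and 0.10 for SCGX at night. With that scaling the pineal-night library held 1.81 times the Fos, 1.28 times the Junb, 2.31 times the Egr1 and 3.21 times the Nr4a1 of mixed tissue. Depth gave at least 49 read-pairs for each gene in every library.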
